A study of Mus musculus with 10 samples.

Results

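Estrogen target genes are genes whose transcription rises when the estrogen receptor is active, and 9 of them are described here in hormone-sensing luminal cells of the mouse mammary gland. The genes were chosen by name as known targets of the receptor: Greb1, Stc2, Tpd52l1, Igfbp4, Rara, Ret, Nrip1, Cxcl12 and Agr2. All 9 had a row among the 26312 genes of the table. The mice were C57BL/6J at 12 weeks of age, and RNA came from cells of their 4th mammary glands that were EpCAM-high, CD49f-low, positive for Sca-1 and negative for CD49b. Wild-type mice, RSK2(+/+), gave 3 libraries at estrus and 2 at diestrus, and mice labelled RSK2(-/-), called KO here, gave 3 at estrus and 2 at diestrus. No mouse received a drug or hormone per the labels, which do not describe the RSK2 allele and do not say whether a library was 1 mouse or a pool. The p-values therefore measure the spread between libraries, which may be technical.

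As background, estrogen binds the receptor encoded by Esr1, which then sits on estrogen response elements, often far from the genes it controls, and recruits coactivators or corepressors. In the mammary gland the receptor is found in the hormone-sensing luminal cells, which pass the signal to their neighbours through secreted factors. RSK2, encoded by Rps6ka3, is a kinase downstream of ERK1/2, and RSK kinases are known to phosphorylate the estrogen receptor. Estrus follows the estrogen peak of the cycle, while diestrus is the progesterone-dominated stage.

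The sequence just upstream of the start is shown for the 3 genes on which the results below turn: Greb1, whose level varied most, and Stc2 and Tpd52l1, the members that changed. They come from RefSeq on GRCm38.p6, are written 5′ to 3′ on the strand of the gene, and cover the 250 bases before the start at chr12:16800887-16801136 (minus strand), chr11:31370062-31370311 (minus) and chr10:31445959-31446208 (minus). The start is that of RefSeq. By the GENCODE position given below, Stc2 reaches to 31370074, so the last bases of its window lie within the gene. Capitals mark one arm of the estrogen response element, which reads AGGTCA on one strand and TGACCT on the other.
Greb1: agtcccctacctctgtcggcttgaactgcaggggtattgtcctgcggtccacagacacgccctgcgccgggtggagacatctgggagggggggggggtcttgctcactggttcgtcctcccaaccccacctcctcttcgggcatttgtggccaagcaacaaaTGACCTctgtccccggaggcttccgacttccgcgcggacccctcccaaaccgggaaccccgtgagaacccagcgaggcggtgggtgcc
Stc2: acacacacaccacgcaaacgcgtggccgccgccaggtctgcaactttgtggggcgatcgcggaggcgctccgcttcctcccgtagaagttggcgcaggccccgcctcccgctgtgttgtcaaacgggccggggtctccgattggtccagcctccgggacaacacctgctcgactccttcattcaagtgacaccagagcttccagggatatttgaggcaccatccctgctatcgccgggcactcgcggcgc
Tpd52l1: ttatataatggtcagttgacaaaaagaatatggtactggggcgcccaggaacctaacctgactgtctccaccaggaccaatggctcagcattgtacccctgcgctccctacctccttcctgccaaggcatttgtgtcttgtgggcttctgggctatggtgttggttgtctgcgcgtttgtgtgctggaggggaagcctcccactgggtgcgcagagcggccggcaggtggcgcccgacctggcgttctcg
The arm in Greb1 began 88 bases before the start. Across windows of 300 bases, which add the first bases of the transcript, the arm on either strand was in 5340 of 32851 windows of all genes, or 16.3%. It was in 2 of the 13 windows found for 8 of the members, 1 of Greb1 and 1 of Rara. The full element (GGTCA, 3 bases of any kind, then TGACC), which overlaps the arm where an A precedes it, was in 23 windows of all genes (0.07%) and in 0 of the 13. A match is a description of the letters in these windows and not a binding site.

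The values are normalized read counts per gene, rounded to whole numbers, and they added up to between 14108057 and 15307238 per library. The 3 KO estrus libraries stood apart from the other 7 on a principal component with 29.3% of the variance, where they scored 37.4 to 55.8 and the others -33.1 to -5.50. The same 3 libraries had the lowest slopes of expression on transcript length, -0.116, -0.03 and -0.08 log2 units per doubling. Rps6ka3, the gene of RSK2, was at 136, 128 and 137 in WT estrus, 158, 156 and 164 in KO estrus, 165 and 139 in WT diestrus and 156 and 165 in KO diestrus. It was thus no lower in the libraries labelled KO, and a whole-gene count does not check a deletion of part of the gene. KO below means the libraries labelled so. The summed markers of hormone-sensing luminal cells ran from 297763 to 415181, against 552 to 2240 for basal cells and 6452 to 12579 for luminal progenitors. Krt8 and Krt18, keratins that all luminal cells express, held 69.1% to 78% of the first sum, and the other hormone-sensing markers added up to between 77228 and 122732. Esr1 (chosen after its values were seen) was between 1468 and 3334 in every library.

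The members covered a wide range of expression. Per kilobase of the longest transcript and averaged over the 10 libraries, Stc2 was highest at 748.3 (range 420.9 to 1067), followed by Nrip1 at 729.5 (474.3 to 1132). Tpd52l1 followed at 194.3 (128.4 to 279.8) and Rara at 150.8 (94.3 to 205.1). The other 5 were low: Greb1 at 8.49 (0.25 to 30.8), Agr2 at 7.06 (1.103 to 14.3), Cxcl12 at 6.15 (2.49 to 11.7), Igfbp4 at 3.24 (1.04 to 9.66) and Ret at 0.99 (0 to 3.85). Stc2 and Nrip1 did not differ beyond their spread over libraries, nor did Tpd52l1 and Rara, and the ranges of the 5 low genes overlapped. Genes whose mean over the libraries reached 10 entered the test. Of the members 7 did, while Ret (mean 5.4) and Agr2 (mean 6.4) did not and are given by their values.

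**Figure D1:**
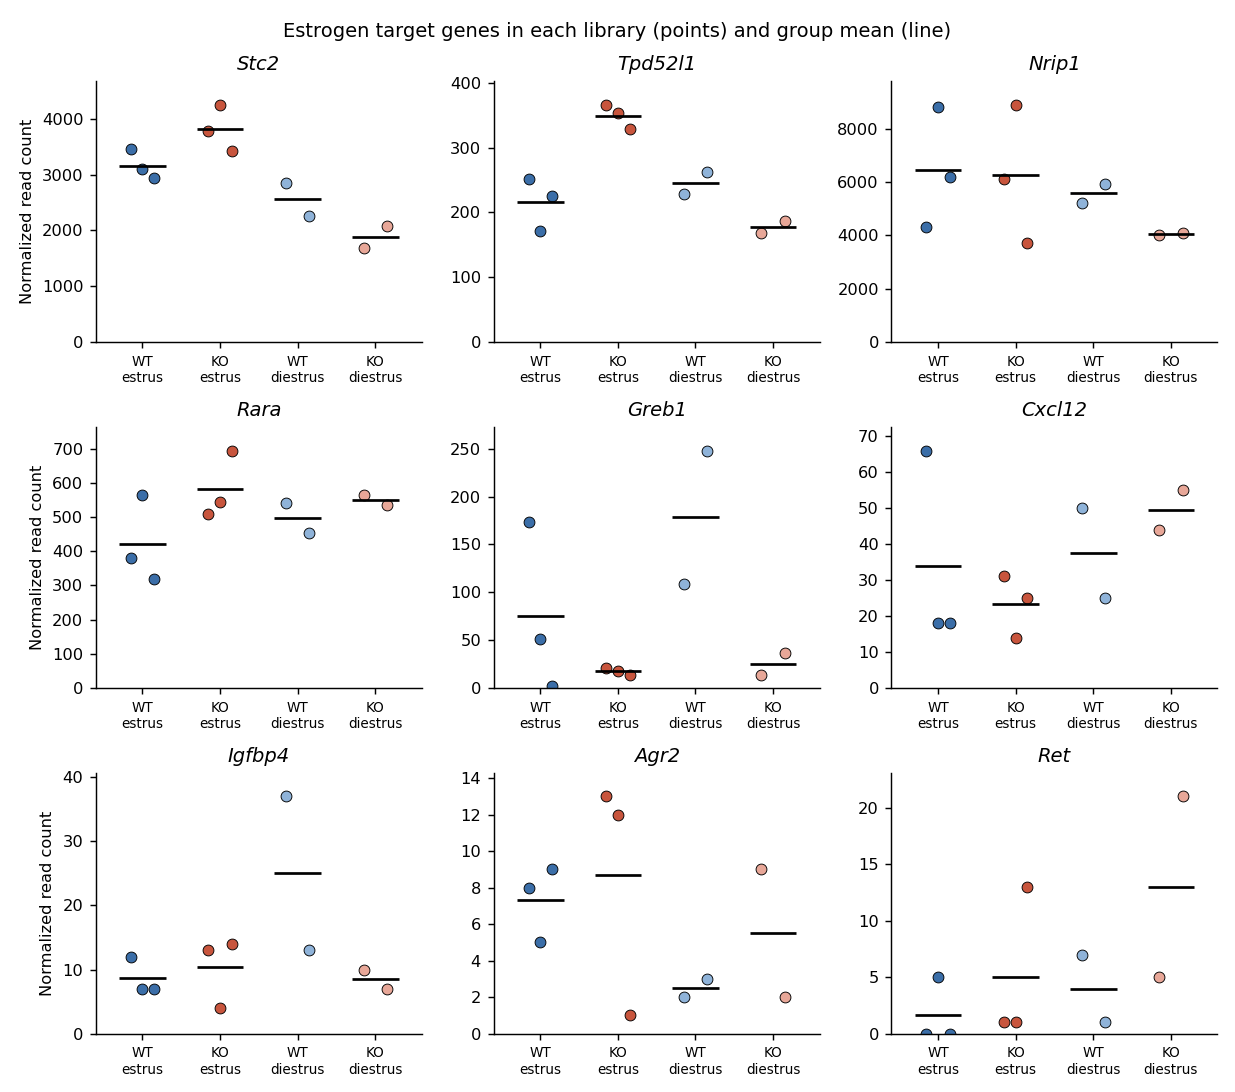
Normalized read counts of the 9 members in each of the 10 libraries (points) by group, on linear axes from 0, with a line at the group mean. The plot shows Stc2 and Tpd52l1 with narrow groups, Greb1 spread from 2 to 248, and Ret and Agr2 never above 21.

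Stc2 and Tpd52l1 were the members that passed the test, and both were about 2-fold higher at estrus than at diestrus in KO cells. A gene is said to rise or fall where limma's adjusted p, Benjamini-Hochberg over the 15180 genes tested, was under 0.05. Stc2 (chromosome 11, 31357307 to 31370074, minus strand, GRCm38) encodes stanniocalcin 2, a secreted glycoprotein that inhibits the protease cleaving IGFBP4. Its values were 3462, 3091 and 2929 in WT estrus, 3778, 4248 and 3415 in KO estrus, 2853 and 2265 in WT diestrus and 1676 and 2080 in KO diestrus. The KO estrus and KO diestrus libraries lay apart, with every KO diestrus library below every other library. Stc2 rose by 1.02 ± 0.17 on the log2(value + 1) scale (SE, n = 3 and 2, limma adjusted p = 0.00584) from diestrus to estrus in KO, a ratio of means of 2.03. In WT cells the same difference was 0.31 ± 0.17 (limma adjusted p = 1), again with every estrus library above both diestrus libraries. Permuting stage within genotype gave an exact two-sided p of 0.01 for Stc2 over all libraries, the smallest these groups allow, and 0.19 for Tpd52l1. These exact p-values were not adjusted over members or comparisons, and the members were chosen with earlier results known. The difference between the genotypes in the stage effect of Stc2 was 0.71 ± 0.24 (limma unadjusted p = 0.0106, adjusted p = 0.264), so it did not pass.

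Tpd52l1 (chromosome 10, 31332376 to 31445958, minus strand) encodes a member of the tumor protein D52 family, a group of small coiled-coil proteins. Its values were 251, 172 and 226 in WT estrus, 366, 353 and 328 in KO estrus, 228 and 262 in WT diestrus and 168 and 187 in KO diestrus. The 3 KO estrus libraries were above all others, and among the remaining 7 the KO diestrus libraries were at the lower end, with only WT estrus 2 between them. Tpd52l1 rose by 0.97 ± 0.19 at estrus in KO (n = 3 and 2, limma adjusted p = 0.00992). It also rose at estrus in KO against WT, by 0.70 ± 0.17 (n = 3 and 3, limma adjusted p = 0.0453), a ratio of means of 1.61. An exact two-sided permutation test of the same 6 libraries gave p = 0.1, the smallest that 3 against 3 allows. At diestrus the difference had the other sign, -0.46 ± 0.21 (n = 2 and 2, limma adjusted p = 0.836), and the groups did not overlap. The interaction was 1.16 ± 0.27 (limma unadjusted p = 0.00111, adjusted p = 0.214). In WT cells estrus and diestrus overlapped, with a difference of -0.19 ± 0.19 (limma adjusted p = 1).

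Whether these calls were made changed with single libraries left out. The KO stage calls of both genes were lost without KO diestrus 1 or 2, which leaves 1 library in that group. The difference was 0.87 without KO diestrus 1 and 1.18 without KO diestrus 2 for Stc2, and 0.90 and 1.05 for Tpd52l1. Without KO estrus 1 and 3 together, a setting chosen after seeing the data, the Stc2 call held and that of Tpd52l1 did not (limma adjusted p = 0.0889). The estrus call of Tpd52l1 passed in 7 of 21 alternatives (limma adjusted p = 0.0369 to 0.315). It was lost without WT estrus 2 (0.113) or 3 (0.0961), without KO estrus 1 (0.122) or 2 (0.0748), and without any 1 of the diestrus libraries (0.0715, 0.0717, 0.0776 and 0.0781). The diestrus libraries are not in this contrast, so leaving them out changed the shared spread and the adjustment but not the difference. With each library left out in turn, the estrus difference of Tpd52l1 was between 0.55 and 0.82. With replicate number as a block the limma adjusted p of this call was 0.0501.

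**Figure D2:**
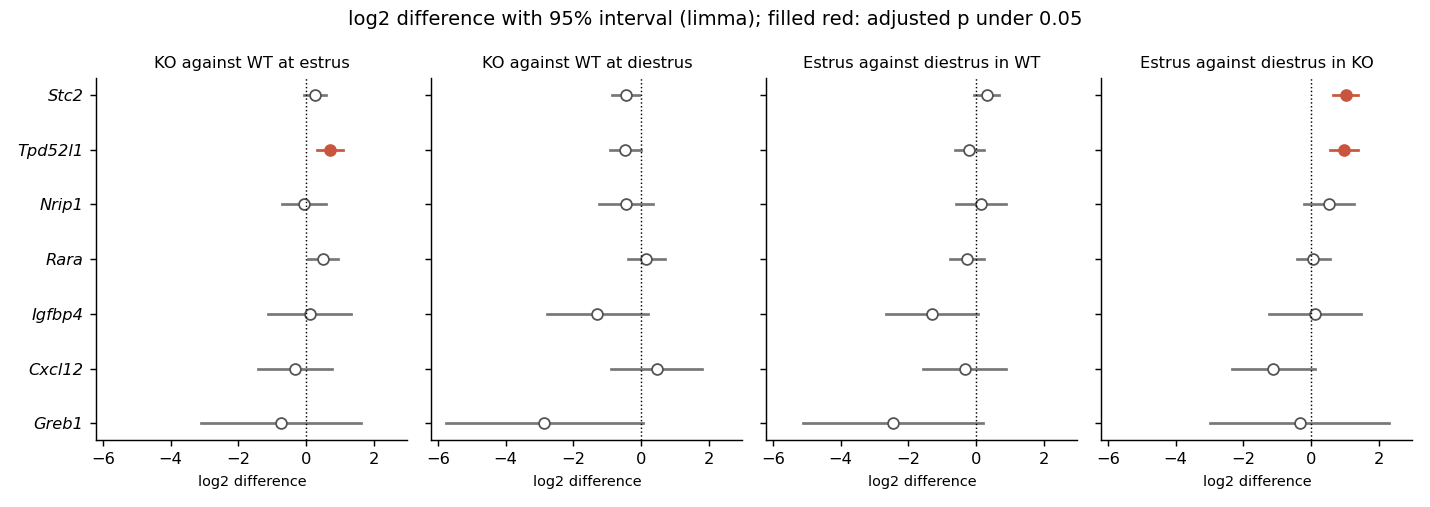
Differences of the 7 tested members on the log2(value + 1) scale for 4 contrasts (panels), with 95% intervals from limma; red points had an adjusted p under 0.05. Red points are Stc2 and Tpd52l1 in KO estrus against diestrus and Tpd52l1 in KO against WT at estrus, and the intervals of Greb1 are the widest.

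Of the nuclear regulators among the members, Nrip1 and Rara were well expressed, Greb1 was low, and none of the 3 passed a test with all libraries. Nrip1 (chromosome 16, 76287400 to 76373827, minus strand) encodes RIP140, a corepressor that estrogen induces and that binds the receptor itself. Its values were 4302, 8831 and 6190 in WT estrus, 6137, 8904 and 3732 in KO estrus, 5236 and 5921 in WT diestrus and 4032 and 4111 in KO diestrus. The estrus libraries of each genotype spread over about the same range, while KO diestrus lay below WT diestrus by 0.45 ± 0.37 (n = 2 and 2, limma adjusted p = 0.970). Rara (chromosome 11, 98927818 to 98974942, plus strand) encodes retinoic acid receptor alpha, a ligand-activated transcription factor. It was at 381, 563 and 319 in WT estrus, 510, 544 and 694 in KO estrus, 540 and 453 in WT diestrus and 564 and 536 in KO diestrus. At estrus Rara differed by 0.50 ± 0.20 between KO and WT (limma unadjusted p = 0.0320, adjusted p = 0.151), and the groups overlapped. In that contrast 25.8% of all genes tested had a limma unadjusted p under 0.05.

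Greb1 (chromosome 12, 16670615 to 16800886, minus strand), a cofactor of the estrogen receptor and one of its most used reporters in breast cancer cells, varied more between libraries of one group than nearly any other gene. Its values were 173, 51 and 2 in WT estrus, 21, 18 and 13 in KO estrus, 109 and 248 in WT diestrus and 13 and 36 in KO diestrus. Both WT diestrus libraries were above both KO diestrus libraries, but the 3 WT estrus libraries ran from the lowest to the second highest value of all 10. The SD within groups was 1.83 log2 units, and 42 of the 15180 genes tested, or 17 of the 11914 with a mean of at least 50, had a larger one. Averaged over both stages, Greb1 differed by -1.80 ± 0.86 between KO and WT (limma adjusted p = 0.355; exact two-sided permutation p = 0.15). Without WT estrus 3 the difference was -2.63 (limma adjusted p = 0.0384), so that 1 library decides whether it passes. At diestrus the difference was -2.86 ± 1.33 (limma adjusted p = 0.836), and at estrus -0.74 ± 1.09 (limma adjusted p = 0.711), which became 0.53 without WT estrus 1. In WT cells estrus against diestrus differed by -2.46 ± 1.22 (limma adjusted p = 1).

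A second gene overlaps part of the Greb1 exons. The antisense gene Gm48140, chosen after its values were seen, shares 736 exon bases with Greb1 on the opposite strand, and the labels do not say whether reads were counted by strand. Its counts were 38, 10 and 4 in WT estrus, 5, 3 and 0 in KO estrus, 23 and 65 in WT diestrus and 4 and 2 in KO diestrus. High and low libraries were largely those of Greb1 (r = 0.785 and rho = 0.777 over 10 libraries, as a description). Reads on the shared bases cannot be told apart without strand. The longest transcripts have 8058 bases (Greb1) and 2057 bases (Gm48140). Averaged over both stages Gm48140 differed by -2.76 between KO and WT (limma adjusted p = 0.106).

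**Figure D3:**
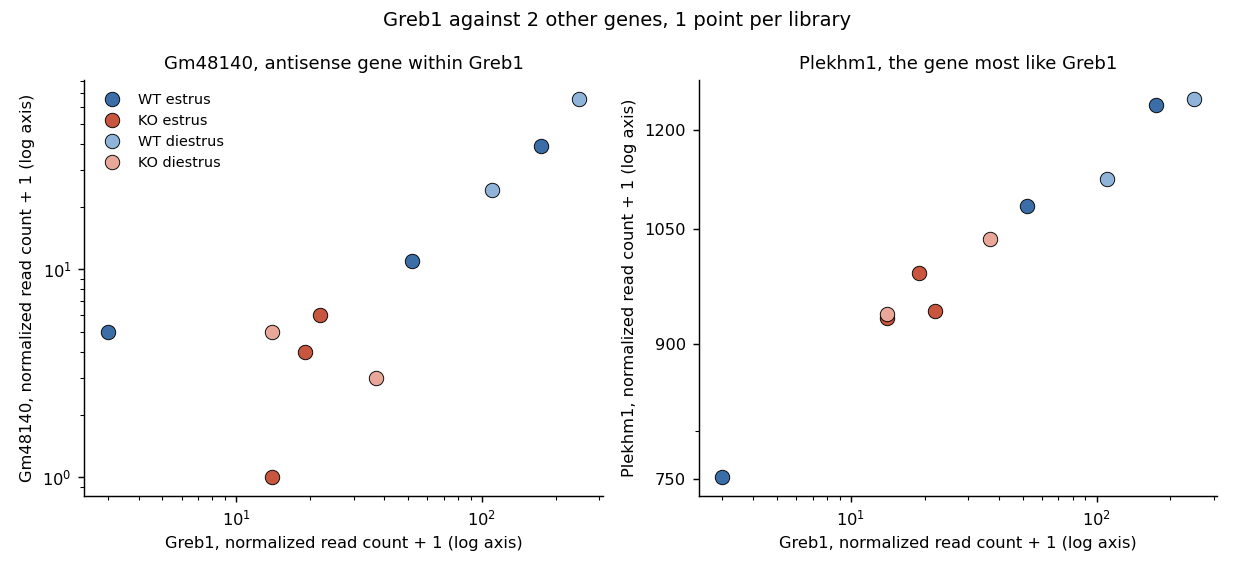
Normalized read counts of Greb1 (horizontal) against its antisense gene Gm48140 and against Plekhm1 (vertical), 1 point per library, with 1 added to each value and log axes, and colours for the 4 groups. The 2 libraries with the highest Greb1 have the highest values of both, and WT estrus 3, with Greb1 at 2, is the lowest library for Plekhm1 at 751.

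The other members that are secreted, in the secretory pathway or on the membrane (Cxcl12, Igfbp4, Agr2 and Ret) were low, unlike Stc2, and fewer cells of a type or less RNA per cell cannot be told apart in these bulk samples. Cxcl12 (chromosome 6, 117168535 to 117181367, plus strand) encodes a chemokine that signals through CXCR4. It was at 66, 18 and 18 in WT estrus, 31, 14 and 25 in KO estrus, 50 and 25 in WT diestrus and 44 and 55 in KO diestrus. Estrus lay below diestrus in KO without overlap, by 1.11 ± 0.56 on the log2 scale (limma adjusted p = 0.188), while WT libraries overlapped. Fibroblasts also express Cxcl12 in this tissue, so their summed markers are given beside it. These were 1757, 1279 and 2151 in WT estrus, 967, 3333 and 214 in KO estrus, 1010 and 2145 in WT diestrus and 324 and 217 in KO diestrus. Dcn (64 to 3065) and Col6a3 (96 to 1552) held 85.5% to 98.8% of that sum. The other 8 markers added up to between 21 and 47, with Pdgfra at 1 to 15, Dpt at 0 to 2 and Col3a1 at 3 to 21. Cells were gated on EpCAM, an epithelial surface protein, and the part of fibroblasts in the Cxcl12 values was not tested.

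Igfbp4 (chromosome 11, 99041244 to 99054392, plus strand) encodes a binding protein that holds insulin-like growth factors away from their receptor, and lies 66301 bases from Rara. It was at 12, 7 and 7 in WT estrus, 13, 4 and 14 in KO estrus, 37 and 13 in WT diestrus and 10 and 7 in KO diestrus. WT estrus lay below WT diestrus without overlap, by 1.29 ± 0.63 (limma adjusted p = 1), and KO diestrus below WT diestrus by 1.30 ± 0.69 (limma adjusted p = 0.881). Ret (chromosome 6, 118151745 to 118197718, minus strand), a receptor tyrosine kinase for ligands of the GDNF family, was at 0, 5 and 0 in WT estrus and 1, 1 and 13 in KO estrus. In diestrus Ret was at 7 and 1 in WT and 5 and 21 in KO. Agr2 (chromosome 12, 35992907 to 36004087, plus strand), a disulfide isomerase of the endoplasmic reticulum, was at 8, 5 and 9 in WT estrus and 13, 12 and 1 in KO estrus. It was at 2 and 3 in WT diestrus and 9 and 2 in KO diestrus. Permutation within stage gave an exact two-sided p of 0.167 for Ret and 0.667 for Agr2 between the genotypes.

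In each comparison limma called 0 to 2 of the 7 tested members, too few genes to show a share above or below that of all genes. At estrus 1 of 7 members rose in KO against WT and 0 fell, beside 4.2% of all genes tested (637 genes, 1.26% higher and 2.94% lower). These were 191 higher and 446 lower, against 271 and 303 with libraries scaled to equal totals and 397 and 423 with quantile normalization. The 637 became 67 without WT estrus 2, 67 without WT estrus 3, 73 without KO estrus 1, 104 to 172 without 1 of the diestrus libraries, and 0 without KO estrus 1 and 3 together. The groups did not overlap for 1 member (higher), beside 26% of all genes (12.9% higher and 13.1% lower). The members' median difference was 0.11 and that of all genes -0.01 on the log2 scale. In this contrast 2 members and 3919 genes (25.8%) had a limma unadjusted p under 0.05.

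In KO estrus against diestrus 2 members rose and 0 fell, beside 16.6% of all genes (7.67% higher and 8.95% lower). That count of 2524 genes was 1331 without KO estrus 1, 151 without KO diestrus 1, 39 without KO diestrus 2 and 195 without KO estrus 1 and 3 together. Without overlap 2 members lay higher and 1, Cxcl12, lower, beside 51% of all genes (25% and 26%). In this KO contrast 2 members and 5134 genes (33.8%) had a limma unadjusted p under 0.05. In WT estrus against diestrus limma called 0 members and 0% of all genes, with 588 genes (3.87%) and 0 members at an unadjusted p under 0.05. There 1 member (Stc2) lay higher without overlap and 1 (Igfbp4) lower, beside 17.7% of all genes (8.72% and 8.99%).

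At diestrus limma called 0 members between the genotypes, beside 0.0395% of all genes (6 genes, 0.0264% higher and 0.0132% lower), with 2 members and 899 genes (5.92%) at an unadjusted p under 0.05. There 5 of the 7 tested members, Greb1, Stc2, Tpd52l1, Igfbp4 and Nrip1, had both KO libraries below both WT libraries, and 0 had both above. Groups of 2 did not overlap for 43.1% of all genes (21.4% higher and 21.6% lower). The members' median difference was -0.45 and that of all genes 0.00 on the log2 scale. Of 23 other estrogen-induced genes tested, 7 lay lower without overlap and 3 higher, with a median of -0.11. Averaged over both stages limma called 0 members and 0.665% of all genes (0.25% higher and 0.415% lower), with 0 members and 2235 genes (14.7%) at an unadjusted p under 0.05. The split was 38 higher and 63 lower, or 29 and 22 with equal totals. For the interaction limma called 0 members and 0% of all genes, with 2 members and 2150 genes (14.2%) at an unadjusted p under 0.05.

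Other genes of the pathway were read from lists of estrogen-induced genes, of receptors and cofactors, and of ligands, receptors and partners of the members. Of the 23 estrogen-induced genes tested (29 listed, 27 in the table), 1 fell in KO at estrus and 0 rose, beside 2.94% and 1.26% of all genes. The gene of the list that fell was Myb, a transcription factor of proliferating luminal cells. It was at 372, 310 and 576 in WT estrus and 104, 147 and 90 in KO estrus. Every KO estrus library was below every WT library, and the difference was -1.85 ± 0.27 (limma adjusted p = 0.0125). In diestrus Myb was at 516 and 486 in WT and at 208 and 350 in KO, and averaged over both stages it fell by 1.37 ± 0.21 (limma adjusted p = 0.0215). The averaged call was lost without WT diestrus 1 (0.0632) or 2 (0.130) and without KO diestrus 1 (0.113) or 2 (0.0903), and passed in 13 of 20 alternatives. The estrus call passed in 19 of 21, and was lost with no trend in the spread (0.05002) and without KO estrus 1 and 3 together (0.195). From diestrus to estrus in KO, 3 of the 23 rose and 3 fell, beside 7.67% and 8.95% of all genes. Among those of the list Ccnd1, which encodes cyclin D1, rose by 1.48 ± 0.22 (limma adjusted p = 0.00470). The immediate-early factor Egr3 rose by 1.69 ± 0.47 (limma adjusted p = 0.0327). Rab31, a small GTPase, fell by 1.02 ± 0.14 (limma adjusted p = 0.00357) and Myb by 1.27 ± 0.30 (adjusted p = 0.0180). All 4 of these calls were lost without KO diestrus 2, and they passed in 20 (Rab31), 19 (Ccnd1) and 17 (Myb) of 21 alternatives and 11 of 20 (Egr3).

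The growth factor gene Areg, a main paracrine output of estrogen in the gland and named here after its values were seen, was at 16776, 17891 and 17417 in WT estrus and 25165, 22050 and 10637 in KO estrus. In diestrus it was at 22596 and 22754 in WT and 11312 and 11845 in KO, a difference of -0.97 (limma unadjusted p = 0.0111, adjusted p = 0.595). Pgr, the progesterone receptor gene and also chosen after its values were seen, ran from 748 to 1688 and passed in 0 of 6 contrasts, as did Esr1.

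Of the 23 receptors and cofactors tested, 0 passed between genotypes at either stage, beside 4.2% of all genes at estrus and 0.0395% at diestrus. In KO estrus against diestrus 1 of the 23 rose and 1 fell, beside 7.67% and 8.95% of all genes. Gata3, a luminal transcription factor that works with the receptor, rose by 0.74 ± 0.16 (limma adjusted p = 0.0137). Pelp1, a scaffold coactivator, fell by 0.68 ± 0.21 (limma adjusted p = 0.0474). Of the 18 partners tested, 1 rose in KO at estrus and 0 fell, beside 1.26% and 2.94% of all genes. The partner that rose was Stc1, the paralog of Stc2. Stc1 was at 11, 10 and 10 in WT estrus, 36, 68 and 26 in KO estrus, 13 and 5 in WT diestrus and 10 and 14 in KO diestrus. The 3 KO estrus libraries were above all others, by 1.86 ± 0.46 over WT estrus (limma adjusted p = 0.0453), a call that passed in 7 of 20 alternatives. In KO estrus against diestrus 3 partners rose and 0 fell, beside 7.67% and 8.95% of all genes. Stc1 rose by 1.67 ± 0.51 (limma adjusted p = 0.0445) and Dhrs3, a retinaldehyde reductase, by 1.14 ± 0.22 (adjusted p = 0.00910). Nrtn, a ligand of the Ret pathway, rose by 0.82 ± 0.26 (limma adjusted p = 0.0478). For this stage contrast the calls of Gata3 and Dhrs3 each passed in 19 of 21 alternatives, Stc1 in 10 of 20, Pelp1 in 7 of 21 and Nrtn in 4 of 21. With 1 library left out in turn, they passed in 8, 9, 4, 2 and 0 of 10 fits in that order, and none of the 5 passed without KO diestrus 2. Beside these gene groups, 0 of the tested fibroblast, basal, endothelial and adipocyte markers passed in any contrast. Those tested were 3 of 10, 9 of 12, 3 of 8 and 2 of 6 in that order. Of all genes, 16.6% passed in KO estrus against diestrus, 4.2% in KO against WT at estrus and at most 0.665% in the others. So few tested genes cannot show that a cell type was unchanged. In KO at diestrus 2 fibroblast markers lay lower than WT without overlap and 0 higher, beside 21.6% and 21.4% of all genes. These 2 were Dcn (-2.87, limma adjusted p = 0.729) and Col6a3 (-2.36, adjusted p = 0.530). Of the hormone-sensing, luminal progenitor and macrophage and lymphocyte markers, 12, 9 and 5 were tested. In order, 2, 1 and 1 rose and 1, 1 and 0 fell in KO estrus against diestrus, beside 7.67% and 8.95% of all genes. Those called were Prom1 (-1.66), Ly6a, which encodes the sort marker Sca-1 (1.02), Wnt4 (0.64), Itga2 (-1.51), Cd14 (0.63) and Cd74 (2.35, all log2 differences). Of the uncalled macrophage and lymphocyte markers, Csf1r was at 187, 189 and 205 in KO estrus and 236 and 234 in KO diestrus. In the same order Cd68 was at 123, 53 and 131 and at 134 and 115, and Lyz2 at 39, 22 and 11 and at 3 and 11. Trbc2 was at 183, 150 and 137 and at 98 and 88. The marker calls passed in 11 (Ly6a) to 17 (Wnt4 and Itga2) of 21 alternatives. In KO against WT at estrus 1 of the 5 macrophage and lymphocyte markers tested rose and 0 fell, beside 1.26% and 2.94% of all genes. Trbc2 was the one that rose, by 1.13 ± 0.22 (limma adjusted p = 0.0276), and passed in 11 of 21. It was lost without WT estrus 2 or 3, KO estrus 1, or KO diestrus 1 or 2 (0.0781, 0.0725, 0.0881, 0.0602 and 0.0584). Their part in the results was not tested.

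**Figure D4:**
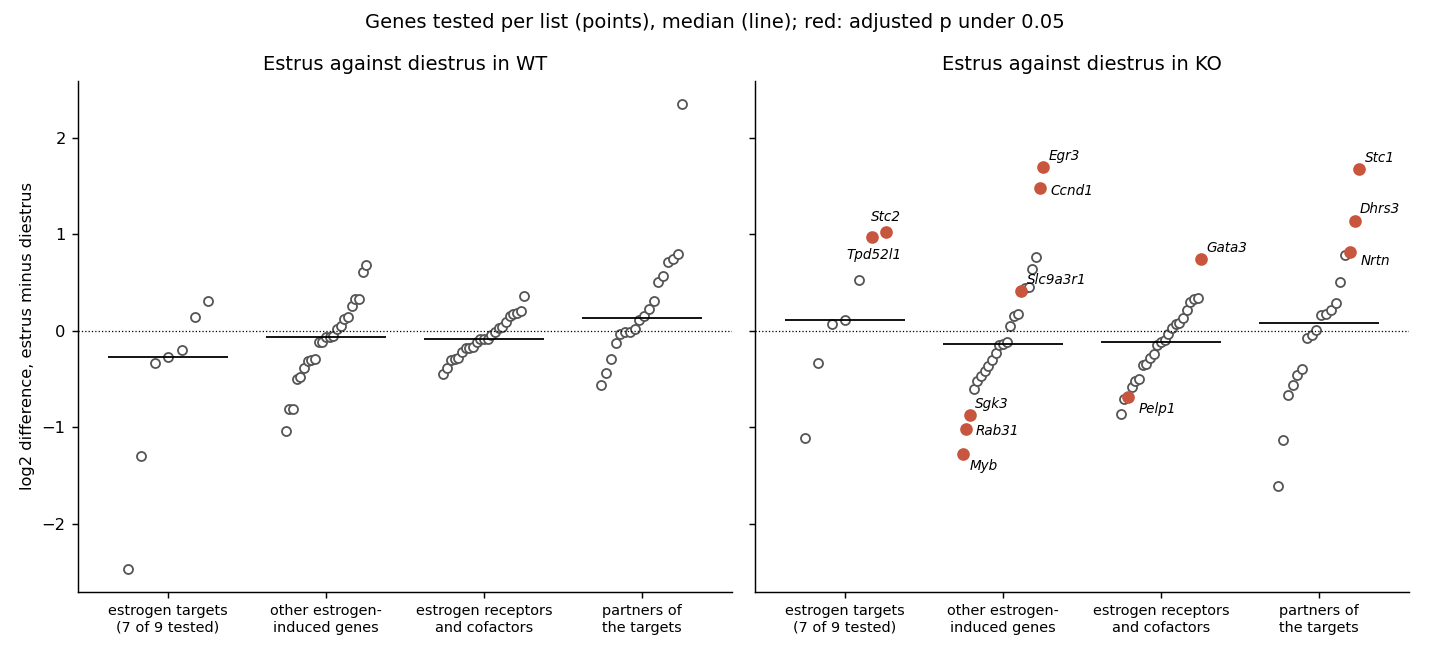
Log2 differences of single genes (points) of the members (7 of 9 tested) and the 3 lists for estrus against diestrus in WT (left) and in KO (right), with a line at each list's median and red points for an adjusted p under 0.05. The members' median is -0.27 in WT and 0.12 in KO, and all red points are in KO.

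Over the 10 libraries, as a description with libraries of all groups pooled, r was 0.747 between Stc2 and Tpd52l1 and 0.778 between Rara and Ret, whose counts ran only from 0 to 21. The most negative values were -0.744 between Nrip1 and Cxcl12 and -0.73 between Ret and Agr2. The genes most like each member, of 10364 with a mean of at least 50, were Plekhm1 (r = 0.987) and Trp53i11 (0.932) for Greb1. For Stc2 they were Asna1 (0.956) and Zmat2 (0.955), and for Tpd52l1 Cbx8 (0.964) and Timm10b (0.951). Nrip1 was most like Zfhx3 (0.989) and Junos (0.908), and Rara most like Klhdc3 (0.958) and Cdyl2 (0.921). Cxcl12 was most like Scamp2 (0.944) and Arhgap27 (0.918), and Agr2 most like Sfxn2 (0.894) and Tubb4a (0.891). Ret was most like Col8a1 (0.937) and Nptxr (0.921), and Igfbp4 most like its neighbour Tns4 (0.844), which lies 11285 bases away on the opposite strand, and Zkscan17 (0.781). The likeness of Igfbp4 to Tns4 by rank was lower (rho = 0.511). All these genes were picked for the highest r among 10364 over only 10 libraries. Such values can be high by selection alone, and the likeness was not tested. Plekhm1 moved over a far narrower range than Greb1, with 1240, 1082 and 751 in WT estrus, 939, 989 and 930 in KO estrus, 1122 and 1250 in WT diestrus and 936 and 1035 in KO diestrus.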

How the data were processed

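The 10 libraries were made from total RNA of sorted mammary cells. Per the submitters' processing notes, the authors aligned reads to mm10 with STAR, counted them with HTSeq and processed them with DESeq2, with versions and settings not given in the sources used here. The deposited value is a score per gene and library, a read count normalized between libraries by the authors and rounded to whole numbers, and it is not a raw count, so no count model was used. Groups came from the library name in each title, and the genotype entry had the same genotype. Titles of KO libraries also carry the word WT. Positions and transcript lengths came from GENCODE M21 on GRCm38, and 26249 genes had a symbol.

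Values were used as log2(value + 1). The 15180 genes with a mean of at least 10 were fitted with limma 3.58.1 in R 4.3.3 (1 mean per group over all 10 libraries, trend in the spread, two-sided contrasts, Benjamini-Hochberg, threshold 0.05). Groups of 2 borrow their spread from the others. The fit was also run on simulated counts whose spread depended on the mean alone, and no result here rests on that run. Members were also compared by exact permutation. Figures used Python 3.11.15 and matplotlib 3.10.9.

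Named genes are the 9 members, at most 4 called genes per list and contrast, the 2 highest genes of a list without a call, and the 2 genes most correlated with each member. Named outside this rule were Esr1, Pgr, Areg, Gm48140, Rps6ka3, Krt8, Krt18, Pdgfra, Dpt, Col3a1, Csf1r, Cd68 and Lyz2. The members and lists were chosen with earlier results of these data known. Alternatives were pseudocounts of 0.5 and 5, a filter at a mean of 50 or none, equal totals, quantile normalization, no trend, replicate number as a block, compared groups alone, removal of the trend on length and GC content, and each library left out. Omission of KO estrus 1 and 3 together was added after seeing the data, and it leaves 1 KO estrus library, assumed to vary like the other groups.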

Additional observations from a re-analysis of the deposited data

How the results depend on the processing

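Of 856 member differences recomputed under the alternatives, 805 kept their direction and their side of the threshold, 19 lost a call, 1 gained one and 31 changed sign. A call could be lost only for Tpd52l1 at estrus and for Stc2 and Tpd52l1 in KO estrus against diestrus. Most of the 805 kept their side by staying without a call, so that count does not measure how stable the calls were. The estrus call of Tpd52l1 passed in 7 of 21 alternatives. Depth limits Ret, Agr2, Igfbp4, Cxcl12 and Greb1, whose counts were often under 50. The causes of the changes below were not tested, unless the setting itself leaves out libraries.

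In KO against WT at estrus the count of members called, 1, was 0 with no filter, no trend, the replicate block, the compared groups alone, or the length and GC trend removed, and 0 to 1 with a library left out. Over all genes the 637 became 89, 44, 996 (block), 23 and 189 in that order, and 67 to 909 with a library left out. At diestrus the 6 became 0 with no filter, 3 with a mean of at least 50, 2 with no trend and 98 in the compared groups alone, and 0 to 28 with a library left out. Averaged over both stages the members called were 0 to 1 with a library left out (Greb1 without WT estrus 3), and the 101 genes became 10 with no filter, 51 with equal totals, 4 with no trend and 0 to 77 with a library left out. In WT estrus against diestrus the 0 became 1 with the block and 0 to 6 with a library left out. In KO estrus against diestrus the members called were 0 to 2 with a library left out, and the 2524 genes became 1626 with no filter, 1451 with the length and GC trend removed and 39 to 2894 with a library left out. For the interaction the 0 became 3 with quantile normalization and 0 to 3 with a library left out.

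Without KO estrus 1 and 3 together, a setting chosen after seeing the data that leaves 1 KO estrus library, 0 members and 0 genes were called at estrus, 14 genes at diestrus, 0 averaged over both stages, 2 in WT estrus against diestrus, and 1 for the interaction. In KO estrus against diestrus 1 member (Stc2) and 195 genes were called. Signs changed there in 6 differences: at estrus Igfbp4 to -0.91 and Nrip1 to 0.53, averaged Nrip1 to 0.0385 and Cxcl12 to -0.24, and in KO estrus against diestrus Igfbp4 to -0.91 and Rara to -0.0153.

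Differences of members that passed no test also changed sign elsewhere: Nrip1 at estrus to 0.19 and Rara in KO estrus against diestrus to -0.0062 (length and GC trend removed), and in the same stage contrast Greb1 to 0.59 (block) and Igfbp4 to -0.11 (quantile normalization). With a library left out, the ranges at estrus were -2.40 to 0.53 for Greb1, -0.17 to 0.62 for Igfbp4, -0.37 to 0.26 for Nrip1 and -0.62 to 0.29 for Cxcl12. Cxcl12 ran from -0.0228 to 0.95 at diestrus, from -0.17 to 0.38 averaged and from -0.94 to 0.15 in WT estrus against diestrus, where Nrip1 ran from -0.11 to 0.41. In KO estrus against diestrus the ranges were -1.04 to 0.36 for Greb1, -0.17 to 0.63 for Igfbp4 and -0.0618 to 0.16 for Rara.

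The labels do not say that equal replicate numbers share a mouse or day. Same-numbered libraries correlated in their deviations from group means at -0.132 to 0.187 (13 pairs) and others at -0.147 to 0.132 (24 pairs). Of 6 estrus libraries, 5 correlated best with their own number in the other genotype. Deviations cancel within a group and mirror each other in the diestrus groups. These correlations therefore depend on each other and cannot decide whether libraries were paired. With the block the estrus call of Tpd52l1 was not made, while the KO stage calls of Stc2 and Tpd52l1 were.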
